A study of Mus musculus with 10 samples.

Results

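Ribosome-bound RNA of libraries labelled Il17rb-Cre was compared with that of libraries labelled Il17ra-Cre, 3 libraries a side. These are 6 of the 10 libraries of the series, chosen by their genotype labels. The other 4, labelled Il17rc-Cre, were not compared. They entered the filter that chose the genes tested, the scaling, and the estimate of the spread of each gene. All 6 came from mouse brain tissue named S1DZ, which the series places in the primary somatosensory cortex. Every mouse carried Cre under the control of 1 IL-17 receptor gene, Il17ra or Il17rb by genotype, and the same virus, AAV5-EF1α-Flex-EGFPL10a. The virus was injected at 400 nl per side and 0.1 µl/min, and tissue was taken 4 weeks later. No uninjected or Cre-free library was used here, so the background of the pull-down was not measured. The sources used here do not give the age, sex or strain of the mice, the way Cre was placed in each receptor gene, or whether replicates were separate mice. The p-values therefore measure the spread between these libraries, which may be technical. Replicates 1, 2 and 3 are the libraries named Ra-1, Ra-2 and Ra-4, and Rb-1, Rb-2 and Rb-4.

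In translating ribosome affinity purification, Cre turns on a Flex cassette that encodes ribosomal protein L10a fused to EGFP, and antibodies against GFP then collect the tagged ribosomes with the mRNA on them. IL-17RA is the subunit shared by several IL-17 receptors. It pairs with IL-17RB to bind IL-17E and with IL-17RC to bind IL-17A and IL-17F, and the complexes signal through the adaptor Act1 to NF-kappaB. Cortex holds excitatory pyramidal neurons and several classes of inhibitory interneurons, together with astrocytes, oligodendrocytes, microglia and vascular cells, which differ widely in the mRNAs they translate.

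Il17ra-Cre replicate 3 stood apart from replicates 1 and 2. It held 165844244 counts, against 42642810 and 39692925 in replicates 1 and 2 and 55007935, 78794795 and 71867914 in the Il17rb-Cre replicates. At least 1 count was found for 24790 genes in replicate 3, and for 23413 when it was thinned to the mean total of replicates 1 and 2. The other 5 libraries had 21205 to 23292. Pearson's r of log2 CPM (counts per 1e6 counts, TMM-scaled), taken across genes as a description, was 0.951 between Il17ra-Cre replicates 1 and 2 and 0.915 to 0.924 between each of these and replicate 3. It was 0.874 to 0.883 between replicate 3 and the Il17rb-Cre libraries, against 0.795 to 0.822 for replicates 1 and 2. Xist had no count in the 6 libraries and the Y-linked gene Ddx3y had 1305 to 6749.

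The transcripts of the driver genes did not follow the labels. Il17ra (chromosome 6, 120463247 to 120487559) was at 16.7, 21.4 and 17.4 CPM in Il17ra-Cre replicates 1 to 3 and at 18, 30.7 and 30.7 CPM in Il17rb-Cre replicates 1 to 3, with overlapping groups. Il17rb (chromosome 14, 29996135 to 30008896) was at 1.75, 1.27 and 3.75 CPM in Il17ra-Cre and 0.657, 0.614 and 0.872 CPM in Il17rb-Cre, so each Il17rb-Cre library lay below each Il17ra-Cre library, on 65, 48 and 640 against 35, 46 and 61 raw counts. Neither gene passed the test (adjusted p = 0.113 and 0.188, edgeR's quasi-likelihood test with Benjamini-Hochberg adjustment). Without Il17rb-Cre replicate 1, Il17ra passed it, 0.74 higher on the log2 scale (adjusted p = 0.0263, edgeR), and with upper-quartile scaling at 0.65 (0.0455). A receptor transcript at these levels does not check which mice carried which driver, so every direction rests on the labels.

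Many genes differed between the groups, and most of these differences were smaller against replicate 3 than against replicates 1 and 2. Of 20301 genes tested, 8268 (40.7%) were called, that is, had an edgeR adjusted p under 0.05. Of these, 3321 (16.4% of genes tested) were higher and 4947 (24.4%) lower in Il17rb-Cre. A positive log2 fold change means higher in Il17rb-Cre throughout. Without replicate 3 the same fit tested 21073 genes and called 4411 higher (20.9%) and 5505 lower (26.1%). Of the genes called higher with all libraries, 3166 (95.3%) were called in the same direction without replicate 3, and of those called lower, 4718 (95.4%). A further 1245 and 787 genes were called only without it. In bulk pull-downs such as these, fewer cells of a type and less RNA per cell cannot be told apart.

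The size of the differences depended on replicate 3. Genes were called with replicate 3 in the fit, so those in which it lay at the Il17rb-Cre level mostly missed the call and stand outside the following counts of called genes. On log2(CPM + 0.5), the median difference of genes called higher was 1.57, 1.29 and 0.89 against Il17ra-Cre replicates 1, 2 and 3. For genes called lower it was -1.90, -1.92 and -1.33. The median ratio of the difference against replicate 3 to that against replicates 1 and 2 was 0.619 (quartiles 0.456 to 0.853) for genes called higher and 0.728 (quartiles 0.498 to 0.978) for genes called lower. Replicate 3 was the Il17ra-Cre library nearest to Il17rb-Cre in 2476 genes called higher (74.6%) and 3353 called lower (67.8%). It lay farther out than replicates 1 and 2 in 307 genes called higher (9.24%) and 841 called lower. Differences over 4-fold were found for 625 genes called higher and 3007 called lower. Without replicate 3 these numbers were 1085 and 3143. The fold itself moved by more than 1.5 times in 495 genes called higher (14.9%) and 163 called lower (3.29%).

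**Figure D1:**
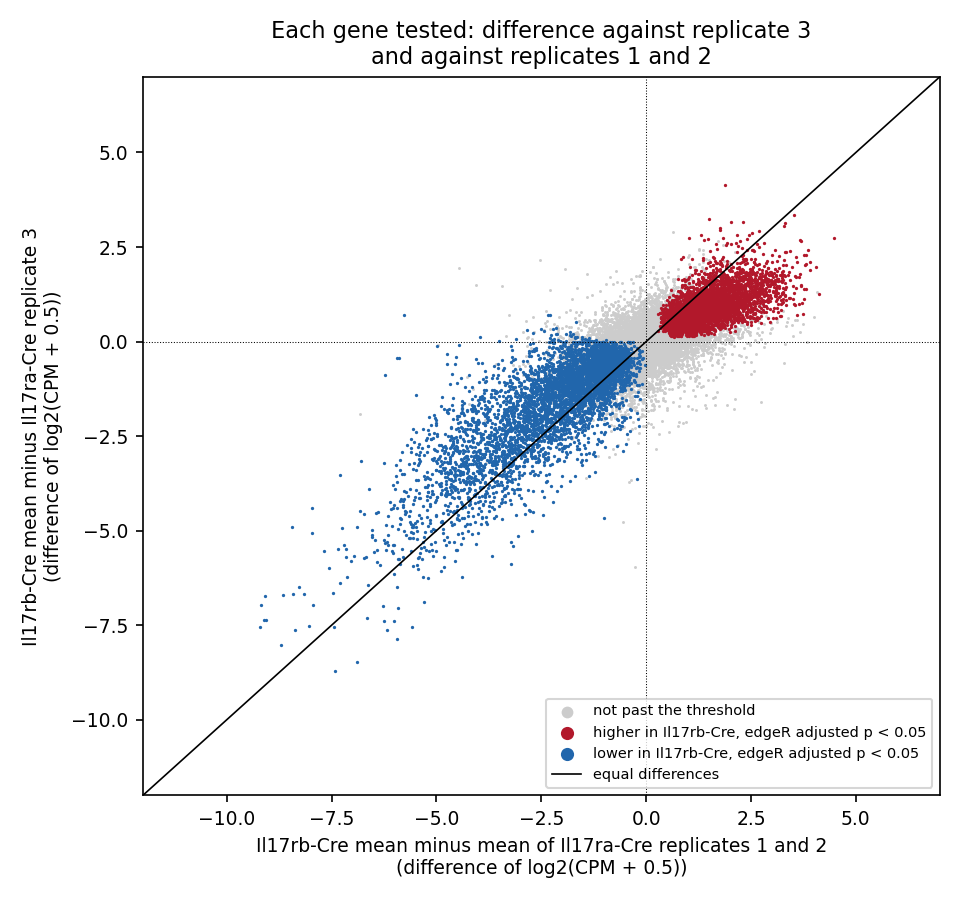
Each point is a gene tested; the horizontal axis is the Il17rb-Cre mean minus the mean of Il17ra-Cre replicates 1 and 2 and the vertical axis is the Il17rb-Cre mean minus Il17ra-Cre replicate 3, both as differences of log2(CPM + 0.5), with genes called higher in red, genes called lower in blue and the line of equal differences in black. Genes called higher lie mostly between the horizontal line at 0 and the line of equal differences, as their median ratio of 0.619 states, and 61 genes called lower lie above 0 on the vertical axis.

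Most called genes separated library by library, which is no separate support, since the calls were made on these same libraries. All 3 Il17rb-Cre libraries lay above all 3 Il17ra-Cre libraries in 4990 of the genes tested (24.6%) and below them in 5935 (29.2%). Of genes called higher 3298 (99.3%) separated in this way, and of genes called lower 4680 (94.6%). In 1968 genes tested (9.69%) Il17rb-Cre lay above Il17ra-Cre replicates 1 and 2 while replicate 3 was inside or beyond the Il17rb-Cre range, and in 1590 (7.83%) the same held on the lower side. Such genes made up 14 of the 3321 genes called higher (0.422%) and 194 of the 4947 called lower (3.92%). Among called genes the difference against replicate 3 alone had the opposite sign in 0 called higher and 61 called lower. A difference over 4-fold against each of the 3 Il17ra-Cre libraries was found in 53 genes called higher and 1355 called lower.

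Short sequence elements known from promoters of neuropeptide and interferon-induced genes are shown first, beside the genes that carry the widest gaps. The letters are RefSeq's for GRCm38.p6, 5′ to 3′ on the gene's strand, with the element in capitals. The cyclic AMP response element TGACGTCA lay 48 bases before the RefSeq start of Sst, at chr16:23890874-23890903, and 112 before that of Cartpt, at chr13:99900777-99900806, both on the minus strand. The interferon-stimulated response element, GAAA, any 2 bases and GAAA on either strand, lay 59 bases before the start of Gbp2 at chr3:142620594-142620623 on the plus strand, and 77 before that of Tgtp1 at chr11:48992259-48992496 on the minus strand. Only short windows are given for Sst, Cartpt and Gbp2, because transcripts of GENCODE M21 begin farther upstream than RefSeq's and place these elements in a first exon.
Sst: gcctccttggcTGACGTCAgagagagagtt
Cartpt: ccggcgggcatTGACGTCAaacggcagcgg
Gbp2: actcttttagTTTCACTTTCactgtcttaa
Tgtp1: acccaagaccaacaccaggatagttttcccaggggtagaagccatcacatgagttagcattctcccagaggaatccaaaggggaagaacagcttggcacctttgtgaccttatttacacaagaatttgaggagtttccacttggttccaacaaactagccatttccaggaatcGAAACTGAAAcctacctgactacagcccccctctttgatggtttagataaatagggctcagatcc
Of all genes tested with an entry in the promoter table (13349), 3.18% held TGACGTCA and 3.89% the interferon element within 250 bases before to 50 after a start. Of 421 genes called over 4-fold higher the shares were 4.28% and 3.56%, and of 2161 called over 4-fold lower 1.25% and 7.17%. The 10 genes with the widest gap on the higher side all had an entry, and only Sst and Cartpt held TGACGTCA. On the lower side 6 of the 10 had an entry, and only Gbp2 and Tgtp1 held the interferon element. Cd74, Gbp4, Gbp8 and H2-Ab1 had no entry. The Sst promoter also held a match to the interferon element, 176 bases before its start. A match is a description of these letters and says nothing about which factor binds.

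Of the 10 genes with the widest gap on the higher side, Sst, Cartpt, Cabp1, Tmem215, Rspo1 and Crhbp had their highest Il17ra-Cre level in replicate 3, Cpne9 and Slc30a3 had replicate 3 between the other libraries, and Lamp5 and Plk5 had their lowest level there. Cpne9, a calcium-dependent membrane-binding protein of the copine family (chromosome 6, 113282307 to 113305627), was at 17.1, 26.3 and 23.8 CPM in Il17ra-Cre and 237, 238 and 271 CPM in Il17rb-Cre. Its log2 fold change was 3.47 ± 0.22 (approximate standard error; edgeR adjusted p = 5.86e-06). Here and below the value after ± is the size of the log2 fold change over the square root of edgeR's F statistic. Without replicate 3 the log2 fold change of Cpne9 was 3.52 and against replicate 3 alone 3.40. The groups lay far apart and the 3 estimates differed by less than the approximate standard error. Rspo1, a secreted activator of Wnt signalling, was at 8.3, 7.91 and 9.61 against 74.2, 85 and 91.2 CPM, with a log2 fold change of 3.27 ± 0.22 (3.37 without replicate 3). Crhbp, which binds corticotropin-releasing hormone and is found in somatostatin interneurons (chromosome 13, 95431371 to 95444924), was at 5.53, 6.42 and 6.92 against 45.1, 44.4 and 44.8 CPM, a log2 fold change of 2.83 ± 0.17. In both genes the libraries of each group lay close together. Slc30a3, which loads zinc into synaptic vesicles, was at 23.1, 27.4 and 27.2 against 131, 156 and 156 CPM (2.51 ± 0.25).

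In a second set the libraries separated but replicate 3 was nearest to Il17rb-Cre. Sst, the peptide somatostatin (chromosome 16, 23889573 to 23890958), was at 37.1, 61.2 and 97.5 against 665, 616 and 581 CPM, and its log2 fold change of 3.25 ± 0.33 was 3.66 without replicate 3 and 2.68 against replicate 3 alone. Cartpt, the precursor of the CART peptides (chromosome 13, 99898489 to 99901091), was at 0.755, 1.43 and 4.71 against 30.5, 47.9 and 28.1 CPM. Its log2 fold change of 3.91 ± 0.63 ran from 2.93 against replicate 3 to 5.02 without it. Both carry the TGACGTCA element printed above. The range for Cartpt is more than a factor of 4 in fold, on a gene under 5 CPM in each Il17ra-Cre library. Cabp1, a calmodulin-like calcium sensor, was at 34.3, 76.7 and 143 against 693, 732 and 686 CPM (3.05 ± 0.46; 3.67 without replicate 3). Tmem215, a transmembrane protein, was at 3.64, 5.01 and 8.84 against 46.2, 45 and 51.6 CPM (3.02 ± 0.30; 3.46 without replicate 3).

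For 6 genes replicate 3 lay farther from Il17rb-Cre than replicates 1 and 2, with the widest gaps of that kind. Lamp5, a membrane protein of upper-layer neurons and of a class of interneurons (chromosome 2, 136052239 to 136069917), was at 73.5, 102 and 67.9 against 473, 505 and 524 CPM (2.63 ± 0.25; 2.52 without replicate 3). Calb1, the calcium buffer calbindin, was at 55.8, 58.6 and 49.9 against 304, 213 and 333 CPM (2.37 ± 0.22). Plk5, a member of the polo-like kinase family, was at 9.38, 12.6 and 9.12 against 68.8, 69.6 and 81.7 CPM (2.83 ± 0.41). In these 3 genes the Il17ra-Cre libraries lay close together and below every Il17rb-Cre library. Ism1, a secreted isthmin, was at 2.94, 3.63 and 2.34 against 15.9, 19 and 17.1 CPM (2.55 ± 0.27). The ankyrin-repeat genes Ankrd34c and Ankrd63 had log2 fold changes of 2.85 ± 0.39 and 2.51 ± 0.67.

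**Figure D2:**
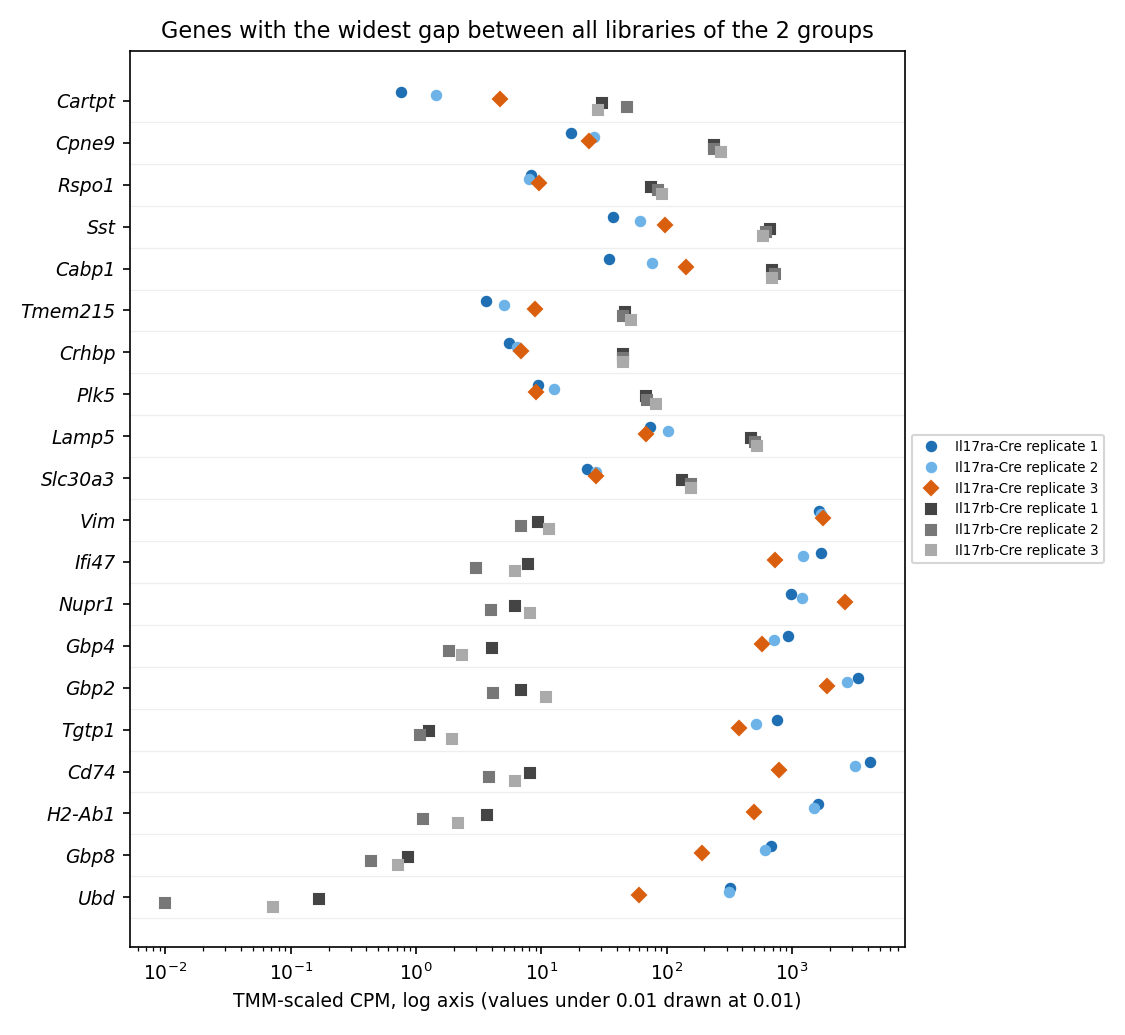
TMM-scaled CPM (horizontal, log axis, values under 0.01 drawn at 0.01) of the 20 named genes with the widest gap between all libraries of the groups, 10 in each direction; each point is 1 library. In the genes at the top all Il17rb-Cre squares lie to the right of the Il17ra-Cre points, and in the lower rows, such as Vim at 1633, 1693 and 1781 against 9.37, 6.87 and 11.5 CPM, they lie to the left.

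Another set of genes separated Il17rb-Cre from Il17ra-Cre replicates 1 and 2 while replicate 3 was at the Il17rb-Cre level. The 8 named on the higher side were chosen for this pattern, so their calls with and without replicate 3 largely follow from the choice. Of these 8 edgeR called 0 with all libraries and 8 without replicate 3. With all libraries 1 of the 8, Rprm, had an unadjusted p under 0.05 and was called by DESeq2. Limma voom with sample quality weights called all 8, but such weights can count replicate 3 for less. Rpl10a (chromosome 17, 28328471 to 28331033), the mouse gene of the protein that the virus tags, was at 58.7, 70.9 and 679 CPM in Il17ra-Cre and 669.6, 602 and 665 CPM in Il17rb-Cre. Any reads of the tagged copy that align to it cannot be told apart from its own. Its log2 fold change was 1.26 ± 0.76 (edgeR adjusted p = 0.211), 3.32 without replicate 3 (edgeR adjusted p = 4.32e-06) and -0.06 against replicate 3 alone. Tmsb10, an actin-binding thymosin, was at 128, 119.6 and 801 against 1019, 733 and 665 CPM, and Rprm, a cell cycle inhibitor found in deep-layer neurons, at 21.2, 25.2 and 148 against 184, 267 and 133 CPM. Replicate 3 lay inside the Il17rb-Cre range in both. Nxph3, a ligand of neurexins, was at 0.566, 2.89 and 26.9 against 22.6, 42.5 and 19.5 CPM and Rem2, a GTPase that restrains calcium channels, at 0.782, 2.79 and 28.7 against 18.9, 19.1 and 20.2 CPM. Bex1, Lmo1 and Ccdc155 had the same pattern, with 9.81, 10.2 and 62.8, 2.72, 3.45 and 18.4 and 1.4, 3.53 and 19.9 CPM in Il17ra-Cre replicates 1 to 3. Without replicate 3 the log2 fold changes of the 8 genes lay between 2.56 for Bex1 and 4.03 for Nxph3.

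On the lower side the 8 genes chosen in the same way were 6 immunoglobulin heavy chain variable genes, Lgi3 and Atg7. Their dependence on replicate 3 likewise follows largely from the choice. Ighv1-72 (chromosome 12, 115757984 to 115758461) was at 84.4, 75.4 and 4.1 against 1.71, 6.39 and 2.24 CPM, and its fold change on the log2 scale was -3.98 ± 1.03 with all libraries (adjusted p = 0.0117, edgeR), -0.23 against replicate 3 alone and -4.79 without Il17rb-Cre replicate 2. The calls of Ighv1-18, Ighv1-26, Ighv1-52, Ighv1-80 and Ighv5-6 were each lost without Il17ra-Cre replicate 2 (edgeR adjusted p = 0.0561 to 0.101) and without Il17rb-Cre replicate 2 (0.0524 to 0.131). Lgi3, a secreted leucine-rich repeat protein of the nervous system, was at 628, 473 and 72.2 against 71.2, 94.2 and 88.2 CPM (-2.21 ± 0.63; edgeR adjusted p = 0.0184). Its call was lost when Il17ra-Cre replicate 1 or 2 or any Il17rb-Cre replicate was left out (edgeR adjusted p = 0.0507 to 0.0718). Atg7, an enzyme of autophagosome formation, was at 388, 523 and 49.7 against 53.9, 61.5 and 61 CPM and missed the threshold with all libraries (edgeR adjusted p = 0.0521). It was called without Il17ra-Cre replicate 3 (-2.95, edgeR adjusted p = 0.0106), and also with replicate 3 kept under several alternatives. These were leaving out Il17rc-Cre replicate 2 (edgeR adjusted p = 0.0157), both other filters (0.049 and 0.0383), only the 2 groups compared (0.038) and DESeq2 (0.0237). Limma voom also called Atg7 (-2.85, limma adjusted p = 4.77e-04), but its sample quality weights can count replicate 3 for less. In Ighv1-72, Lgi3 and Atg7 the 4 other libraries lay together, away from Il17ra-Cre replicates 1 and 2.

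**Figure D3:**
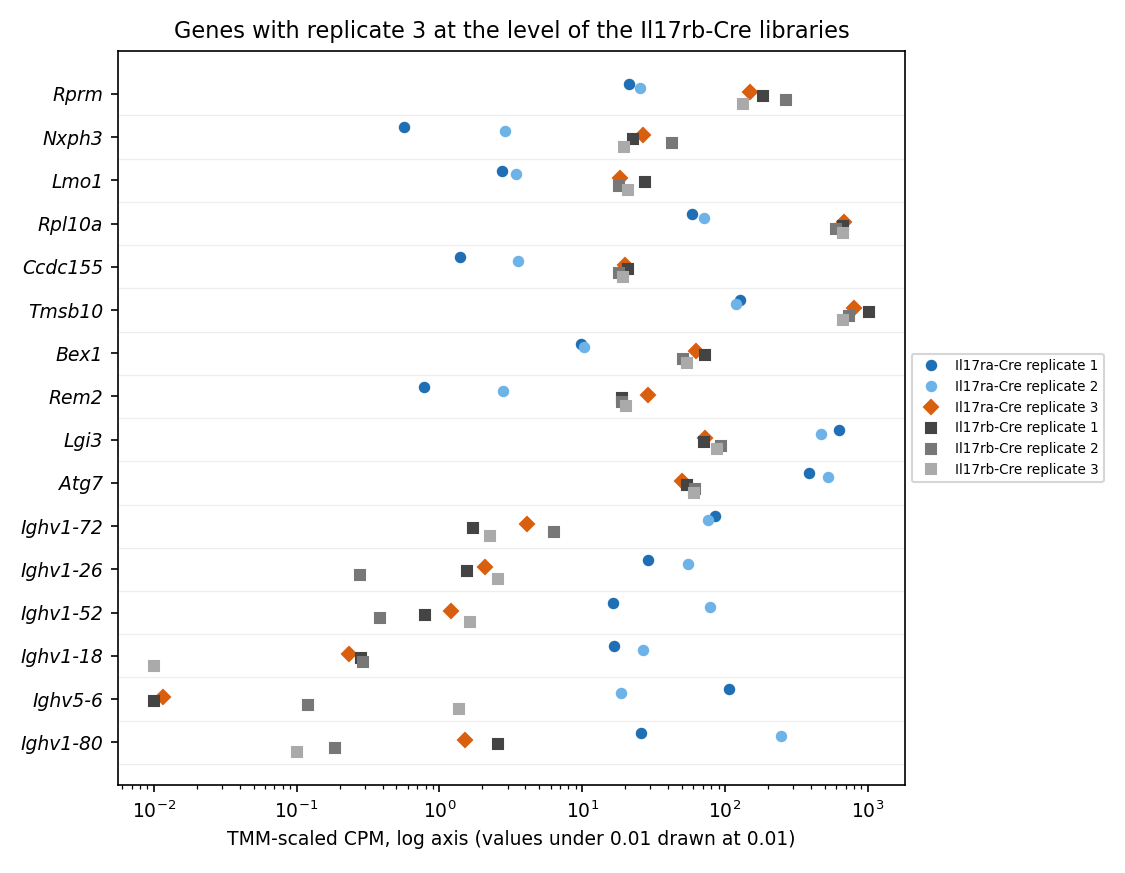
TMM-scaled CPM (horizontal, log axis, values under 0.01 drawn at 0.01) of the 16 named genes in which Il17ra-Cre replicate 3 lay inside or beyond the Il17rb-Cre range; each point is 1 library. The diamonds of replicate 3 lie among or just beyond the squares of Il17rb-Cre, as for Rpl10a at 679 CPM, and away from the circles of replicates 1 and 2.

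Neuronal marker lists were mostly higher in Il17rb-Cre. A list is described by how many of its tested members were called and by its median log2 fold change, which was -0.09 over all genes tested. Of all genes tested 16.4% were called higher and 24.4% lower, and the counts of each list stand beside these shares. Where 1 or 2 members were called against the direction of most of a list, that number moved between 0 and 3 as single libraries were left out. Of 13 excitatory neuron markers 12 were called higher, with a median of 1.80. Their summed level was 1999, 2457 and 8105 CPM in Il17ra-Cre and 24080, 21090 and 21320 CPM in Il17rb-Cre, so these markers of cortex were present in all 6 libraries. The median was 2.85 without replicate 3 and 1.15 against it alone. Chn1, a signalling protein of cortical neurons, was at 118, 159.8 and 322 against 1100, 1145 and 1173 CPM (2.51 ± 0.34), and Nrgn, which binds calmodulin in dendrites, at 1160, 1250 and 5504 against 18140, 14190 and 14890 CPM (2.58 ± 0.57). In both, replicate 3 lay between replicates 1 and 2 and Il17rb-Cre, and without it the log2 fold change of Nrgn was 3.71. Camk2a, a kinase of excitatory synapses, was more even at 168, 213 and 255 against 565, 589 and 536 CPM (1.41 ± 0.25). Of 12 pan-neuronal markers 10 were higher and 1 lower, with medians of 1.61, 2.31 without replicate 3 and 0.95 against it alone. Rbfox3, the neuronal nuclear antigen NeuN, was at 88.1, 142 and 321 against 978, 1097 and 1124 CPM (2.54 ± 0.41; 3.22 without replicate 3).

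Interneuron class markers kept their median with or without replicate 3. Of 14 members 9 were higher and 1 lower, and the median was 1.82 with all libraries, 1.83 without replicate 3 and 1.82 against it alone. Npy, neuropeptide Y, was at 37.5, 68.7 and 115 against 355, 389 and 371 CPM (2.33 ± 0.34). Cck, the peptide cholecystokinin, was at 140.2, 178 and 666 against 1190, 898 and 901 CPM, a log2 fold change of 1.60 ± 0.50 that was 2.65 without replicate 3. Its call (edgeR adjusted p = 0.0259) was lost without Il17ra-Cre replicate 1 or 2 or Il17rb-Cre replicate 1 (edgeR adjusted p = 0.0632 to 0.0818). Npy was thus low in all 3 Il17ra-Cre libraries, and Cck mainly in replicates 1 and 2. Of 12 markers of inhibitory neurons as a whole 4 were higher and 2 lower, with a median of 0.73. The transcription factor Lhx6, of interneurons from the medial ganglionic eminence, was at 9.16, 6.55 and 1.98 against 21.2, 19.8 and 28.5 CPM (1.98 ± 0.47), and Dlx1 at 2.62, 9.92 and 3.09 against 16.7, 22.8 and 25.3 CPM (2.06 ± 0.47; 2.91 without Il17ra-Cre replicate 2). Gad1, the enzyme that makes GABA and the most abundant member, was at 92.1, 175 and 76.8 against 109.9, 135 and 175 CPM with overlapping groups (edgeR adjusted p = 0.511).

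Genes of neuronal adhesion and signalling were also mostly higher. Of 28 synaptic adhesion genes 19 were higher and 1 lower (median 1.19; 1.22 without replicate 3). Lrfn5, a postsynaptic adhesion protein, was at 10.2, 15.3 and 16.8 against 43.6, 56.5 and 54.4 CPM (1.87 ± 0.21). Of 25 genes of cyclic nucleotide signalling 18 were higher and 3 lower (median 1.21). Members went both ways. Prkar1b, a regulatory subunit of protein kinase A enriched in brain, was at 334, 409 and 753 against 2014, 2253 and 2432 CPM (2.16 ± 0.28), while Rapgef3, an exchange factor opened by cyclic AMP, was at 65, 70.3 and 35.5 against 3.21, 4.79 and 3.22 CPM (-3.92 ± 0.38). Of 27 genes of calcium stores, pumps and the calmodulin pathway 17 were higher and 2 lower (median 1.10). Camkk1, a calmodulin-dependent kinase, was at 37.7, 58.6 and 74 against 226, 254 and 279 CPM (2.15 ± 0.24) and Itpr2, the inositol trisphosphate receptor of astrocytes, at 19.9, 28 and 10.6 against 0.582, 1.07 and 1.44 CPM (-4.23 ± 0.43).

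Among 29 G protein subunits and RGS proteins 15 were higher and 7 lower, with a median of 0.62 that was 1.17 without replicate 3. Rgs4, which speeds the shutdown of G proteins in neurons, was at 212, 239 and 326 against 849, 896 and 1056 CPM (1.85 ± 0.19). Gng5, a gamma subunit of non-neuronal and progenitor cells, was at 151, 125 and 163 against 13.7, 9.77 and 10.7 CPM (-3.68 ± 0.18), and Gnai2, an inhibitory alpha subunit, at 674, 613 and 455 against 139, 138 and 141 CPM (-2.06 ± 0.18). In these 3 genes every Il17ra-Cre library lay on the same side of every Il17rb-Cre library. For Rgs4 and Gnai2 replicate 3 was the Il17ra-Cre library nearest to Il17rb-Cre. Gnai2 was at -2.21 without replicate 3 and -1.69 against it alone. Of 19 axonal motor genes 10 were higher and 2 lower (median 0.60), with the dynein intermediate chain Dync1i1 at 40.4, 48.2 and 87.1 against 247, 255 and 262 CPM (2.12 ± 0.27). Of 23 neuronal cytoskeleton genes 10 were higher and 3 lower. The lower count was 6 without Il17ra-Cre replicate 3 and 1 without Il17ra-Cre replicate 1 or 2 or any Il17rb-Cre replicate. The tubulin Tubb4a, which oligodendrocytes also express, was at 10630, 8061 and 1291 against 1457, 1726 and 1740 CPM, so replicate 3 lay below the Il17rb-Cre range. Its call (edgeR adjusted p = 0.0216) was lost without any of those 5 libraries (edgeR adjusted p = 0.0590 to 0.0857). Crmp1, which guides growing axons, was at 92.2, 99.6 and 102 against 216, 289.8 and 296 CPM (1.45 ± 0.16).

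Splicing regulators went both ways. Of 25 RNA-binding and splicing regulators 11 were higher and 6 lower (median 1.14; 1.82 without replicate 3). Nova1, a neuronal splicing factor, was at 12.1, 15.8 and 13.4 against 45.5, 39.4 and 41.3 CPM (1.61 ± 0.16). Qk, which processes myelin mRNAs in glia, was at 405, 350.4 and 169 against 18.3, 20.3 and 16 CPM (-4.08 ± 0.31), and Ptbp1, the polypyrimidine tract protein that neurons switch off, at 66.4, 57.5 and 38.4 against 4.75, 6.7 and 4.57 CPM (-3.34 ± 0.26). About 20.7% of the exonic length of Ptbp1 overlaps another gene, whose reads cannot be told apart without strand.

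Astrocyte and other glial markers were lower in Il17rb-Cre, with replicate 3 near replicates 1 and 2 in some lists and between the groups in others. All 14 astrocyte markers were called lower, with medians of -3.80, -3.98 without replicate 3 and -3.57 against it alone. Their summed level was 15450, 14790 and 8111 CPM in Il17ra-Cre and 716, 720.2 and 738 CPM in Il17rb-Cre. Gfap, the intermediate filament of astrocytes (chromosome 11, 102887336 to 102900912), was at 8068, 7454 and 4848 against 157, 143 and 183 CPM (-5.40 ± 0.25). All 13 oligodendrocyte markers were lower too, but here the median was -5.10 without replicate 3 and -2.42 against it alone (-4.59 with all). Their summed level was 46040, 31510 and 5487 CPM against 1201, 1037 and 1150 CPM. Cldn11, a tight junction protein of myelin, was at 192, 158 and 55.7 against 4.97, 2.83 and 4.46 CPM (-5.04 ± 0.72) and Aspa, which breaks down N-acetylaspartate, at 417, 248 and 34.6 against 9.42, 6.58 and 9.29 CPM (-4.79 ± 0.77; -2.02 against replicate 3 alone and -4.05 without Il17ra-Cre replicate 1). Of 9 precursor markers 8 were lower (median -3.73; -4.64 without Il17rb-Cre replicate 3), with the transcription factor Olig2 at 264, 204 and 82.4 against 8.48, 5.42 and 8.36 CPM (-4.63 ± 0.41).

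All 14 microglial markers were lower, at medians of -4.81, -5.09 without replicate 3 and -3.48 against it alone. Their summed level was 1211, 1839 and 938 CPM against 28, 34.3 and 34.2 CPM. C1qc, a chain of the complement starter C1q, was at 173, 257 and 157 against 1.26, 2.24 and 3.19 CPM (-6.45 ± 0.84), and Ctss, a protease of antigen-presenting cells, at 332, 515 and 174 against 2.37, 2.19 and 3.54 CPM (-6.98 ± 1.08). Replicate 3 was the lowest Il17ra-Cre library in both and far above Il17rb-Cre. Mural cell markers differed more against replicate 3 than against replicates 1 and 2. Of 11 members 10 were lower, and the median was -4.38 without replicate 3 and -5.46 against it alone, with summed levels of 156, 133 and 222 CPM against 4.8, 9.34 and 6.46 CPM. Vtn, the adhesive protein vitronectin, was at 69.5, 54.9 and 124 against 1.8, 2.26 and 2.75 CPM (-5.19 ± 0.46) and Higd1b, a pericyte gene, at 10.7, 10.4 and 18.5 against 0.432, 0.427 and 0.315 CPM (-5.08 ± 0.40). Of 12 endothelial markers 4 were lower, and 7 without replicate 3. Their median was -2.48, -2.97 without replicate 3 and -0.36 against it alone, and their summed level was 400.0, 288 and 73 CPM against 26.4, 36 and 31.2 CPM. Most of that sum in Il17ra-Cre replicates 1 and 2, and little of it in Il17rb-Cre, was Ly6c1, a surface protein of brain endothelium. Ly6c1 was at 351, 222 and 37.1 against 0.113, 1.24 and 0.8 CPM (-8.11 ± 1.17; -7.44 without Il17ra-Cre replicate 1 and -8.75 without Il17rb-Cre replicate 2). The endothelial sum is thus largely a measure of 1 gene in those 2 libraries.

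**Figure D4:**
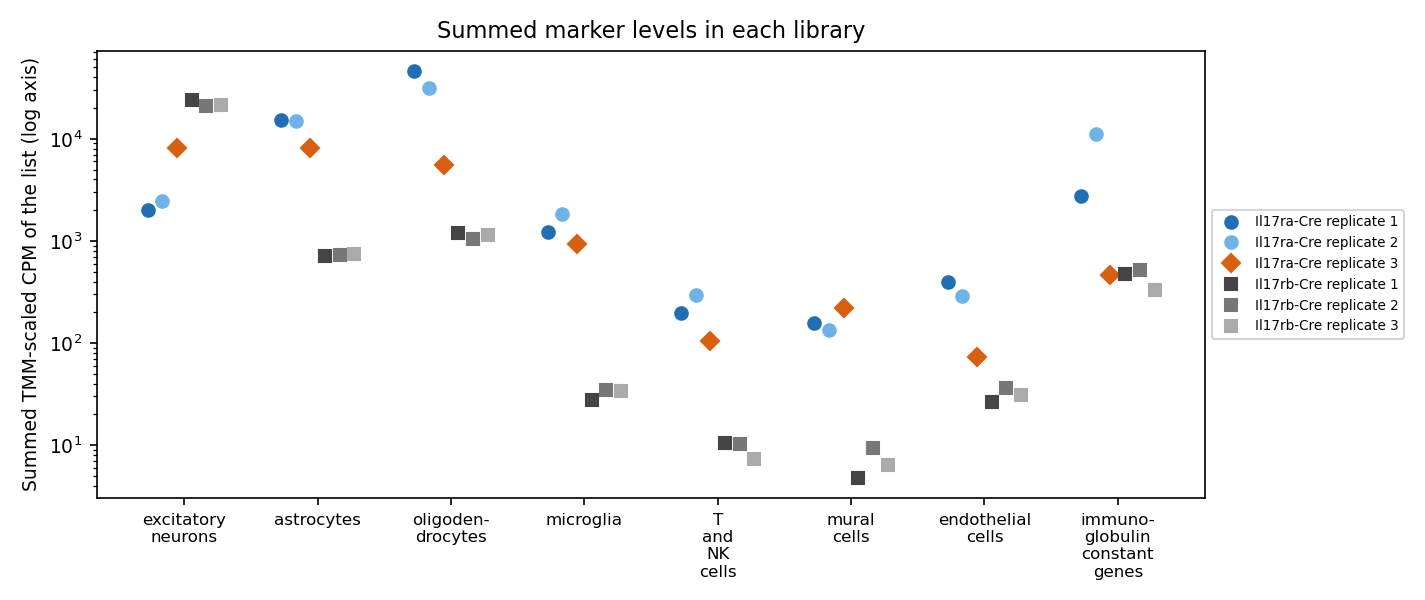
Summed TMM-scaled CPM (vertical, log axis) of each marker list in each of the 6 libraries, 1 point per library. Replicate 3 (diamond) lies with replicates 1 and 2 for astrocytes, microglia and mural cells, between the groups for excitatory neurons and oligodendrocytes, and at the Il17rb-Cre level for immunoglobulin constant genes.

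T and NK cell markers were lower in Il17rb-Cre. Of 14 T and NK cell markers 11 were lower, with a median of -6.50 (-5.56 with the 5 members that had no count in Il17rb-Cre set at 3 counts over that group, and -5.83 without Il17ra-Cre replicate 2). Their summed level was 196, 297 and 104 CPM against 10.6, 10.3 and 7.32 CPM. Most of that sum in each Il17ra-Cre library, and little of it in Il17rb-Cre, was Ccl5, a chemokine of activated lymphocytes. Ccl5 was at 153, 199.7 and 68.2 against 1.45, 1.55 and 1.23 CPM (-6.64 ± 0.50). Il2rb, the shared receptor subunit of IL-2 and IL-15, had 110, 418 and 1000 counts in Il17ra-Cre and 0 in each Il17rb-Cre library, at least 438-fold lower against a floor of 3 counts over the group. Counts and floors carry counting error only, since PCR reads without molecular identifiers are not independent molecules. Cd3e, Cd8a, Gzma and Cd2 also had no count in Il17rb-Cre. B and plasma cell markers gave another picture. Of 7 tested 3 were lower (median -4.04; -2.92 without Il17ra-Cre replicate 2), and their summed level was 1116, 2800 and 243 CPM against 388, 414 and 222 CPM. Most of that sum was Ighm, the constant gene of IgM, at 1005, 2461 and 196 against 372, 409 and 212 CPM, with replicate 3 below the Il17rb-Cre range. The call of Ighm (edgeR adjusted p = 0.0478) was lost without any 1 of the 10 libraries other than Il17ra-Cre replicate 3 (0.0584 to 0.267), and without Il17ra-Cre replicate 2 its log2 fold change of -1.88 ± 0.68 was -0.89.

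Of all lists, the immunoglobulin genes had the widest distance between the median against replicate 3 alone and the median without it. The summed level of constant genes was 2743, 11200 and 461 CPM in Il17ra-Cre and 478, 519.7 and 331 CPM in Il17rb-Cre, so replicate 3 lay inside the Il17rb-Cre range. Igha, the constant gene of IgA, chosen after its values were seen, was at 1046, 5944 and 56 against 31.3, 46.7 and 47.5 CPM (-5.81 ± 1.40; -3.75 without Il17ra-Cre replicate 2). Igkc, the kappa constant gene, was at 89, 262 and 35 against 12.2, 3.04 and 8.26 CPM (-4.04 ± 0.81), and Jchain, which joins IgA and IgM, at 20.8, 73.9 and 9.98 against 3.13, 1.6 and 1.47 CPM (-4.08 ± 0.80). Without Il17ra-Cre replicate 2 the log2 fold changes of Igkc and Jchain were -3.01 and -2.92, and both genes lay above Il17rb-Cre in replicate 3. Of 11 constant genes tested 7 were lower, and of 56 variable genes 20, with medians of -4.48 and -4.18 that were -2.52 and -3.18 without Il17ra-Cre replicate 2, -4.95 and -4.55 without replicate 3, and -0.87 and -0.26 against replicate 3 alone. Leaving out replicate 3 raised the counts to 8 and 29. Leaving out Il17ra-Cre replicate 1 lowered them to 6 and 17, and Il17ra-Cre replicate 2 to 3 and 9. Without Il17rb-Cre replicate 1 they were 4 and 10, without Il17rb-Cre replicate 2 they were 4 and 6, and without Il17rb-Cre replicate 3 they were 5 and 11. Variable genes share sequence, so reads may be split among them or lost. Both immunoglobulin lists were added after the data were seen.

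The 10 genes with the widest gap on the lower side were the interferon-inducible GTPase genes Gbp2, Gbp4, Gbp8, Tgtp1 and Ifi47, the antigen presentation genes H2-Ab1 and Cd74, and Ubd, Nupr1 and Vim. Gbp2, a guanylate-binding protein induced by interferons (chromosome 3, 142620602 to 142638008), was at 3337, 2748 and 1910 against 6.89, 4.11 and 10.9 CPM, and its fold change on the log2 scale was -8.51 ± 1.05 (adjusted p = 2.03e-04, edgeR). Tgtp1, a GTPase of the immunity-related family, was at 756, 516 and 376 against 1.26, 1.08 and 1.93 CPM (-8.59 ± 0.98). Both have the interferon element printed above. Replicate 3 was the lowest Il17ra-Cre library in both and still over 100 times the highest Il17rb-Cre library. Gbp4, Gbp8 and Ifi47, of the same GTPase families, had log2 fold changes of -8.09 ± 1.03, -9.52 ± 1.35 and -7.74 ± 0.96. H2-Ab1, the beta chain of an MHC class II molecule, was at 1609, 1502 and 493 against 3.66, 1.13 and 2.17 CPM (-9.02 ± 1.29), and Cd74, the chain that guides class II molecules to the endosome, at 4159, 3154 and 789 against 8.11, 3.83 and 6.12 CPM (-8.81 ± 1.30). Ubd, a ubiquitin-like modifier induced by inflammatory cytokines, was at 317, 314 and 60.2 against 0.169, 0 and 0.0715 CPM (-11.59 ± 1.94; -10.9 without Il17rb-Cre replicate 2 and -12.6 without Il17rb-Cre replicate 1). Against replicate 3 alone the log2 fold changes of H2-Ab1, Cd74 and Ubd were -7.74, -7.03 and -9.66.

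Replicate 3 was the highest Il17ra-Cre library in 841 genes called lower, and the 6 named with the widest gap of that kind are given next. Vim, the filament vimentin of reactive astrocytes and mesenchymal cells (chromosome 2, 13573927 to 13582826), was at 1633, 1693 and 1781 against 9.37, 6.87 and 11.5 CPM (-7.52 ± 0.65). Sparc, a secreted matrix protein of astrocytes and vessels, was at 619.9, 628 and 675 against 9.42, 9.56 and 8.42 CPM (-6.13 ± 0.35). These were nearly level over the 3 Il17ra-Cre libraries. Nupr1, a stress-induced nuclear protein, was at 984, 1202 and 2668 against 6.19, 3.92 and 8.16 CPM (-8.05 ± 0.92), Lgals3, the lectin galectin-3, at 292, 323 and 919.9 against 3.12, 1.11 and 2.46 CPM (-7.85 ± 1.15; -7.12 without replicate 3), and the monocyte chemokine Ccl2 at 85.1, 85.7 and 187 against 0.751, 0.294 and 0.915 CPM (-7.52 ± 0.80). These 3 were over 2 times higher in replicate 3 than in replicates 1 and 2. Glipr2, of a family of secreted pathogenesis-related proteins, had a log2 fold change of -7.13 ± 0.55.

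Most tested members of the pathogen sensor and NF-kappaB lists were lower in Il17rb-Cre. Of 22 pathogen sensors tested 17 were lower (median -4.37; -4.26 with the 3 tested members that had no count in Il17rb-Cre set at 3 counts over that group, and -3.45 without Il17ra-Cre replicate 2). Myd88, the adaptor shared by most Toll-like receptors, was at 58, 55.8 and 77.5 against 7.58, 8.23 and 10.3 CPM (-2.87 ± 0.26), Tlr3, the receptor of double-stranded RNA, at 45.3, 31.3 and 20.4 against 1.67, 1.12 and 1.31 CPM (-4.56 ± 0.34), and Zbp1, which senses left-handed nucleic acids, at 578, 380.3 and 231 against 7.17, 5.11 and 6.25 CPM (edgeR adjusted p = 1.17e-04). All 3 were lower against each Il17ra-Cre library. Of 19 NF-kappaB pathway genes 16 were lower (median -2.12; -1.26 against replicate 3 alone). Nfkb2, a subunit of the non-canonical arm, was at 53, 62.2 and 19.9 against 1.8, 1.83 and 1.04 CPM (-4.85 ± 0.46) and Bcl3, a nuclear cofactor of these subunits, at 159.6, 149.9 and 67 against 1.09, 2.79 and 3.09 CPM (-5.75 ± 0.47). Nfkbia, the inhibitor that NF-kappaB itself induces, was at 687, 677 and 249 against 47.4, 47.9 and 41.9 CPM (-3.56 ± 0.41).

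The promoter of Nfkbia is shown because it holds the kappaB element, GGGA, any base and TTTCC on either strand, 29 bases before the RefSeq start at chr12:55492648-55492897 on the minus strand (GRCm38.p6). The promoter of H2-Aa, a class II alpha chain chosen after its values were seen, is shown for the Y box CTGATTGG, 51 bases before its start at chr17:34287824-34288073 on the minus strand. H2-Aa itself was at 687, 614 and 201 against 1.9, 0.0534 and 0.872 CPM (-9.09 ± 1.49; -10.1 without Il17rb-Cre replicate 1).
Nfkbia: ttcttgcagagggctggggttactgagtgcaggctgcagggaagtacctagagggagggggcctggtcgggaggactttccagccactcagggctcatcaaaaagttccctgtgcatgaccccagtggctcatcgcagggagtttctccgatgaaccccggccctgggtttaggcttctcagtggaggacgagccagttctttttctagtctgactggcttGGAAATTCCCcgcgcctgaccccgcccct
H2-Aa: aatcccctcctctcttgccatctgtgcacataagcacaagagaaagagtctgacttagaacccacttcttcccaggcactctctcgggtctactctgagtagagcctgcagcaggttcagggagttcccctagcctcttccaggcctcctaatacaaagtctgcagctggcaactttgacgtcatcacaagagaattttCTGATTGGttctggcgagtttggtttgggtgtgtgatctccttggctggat
The kappaB element was in 0.539% of promoters of all genes tested, 0.475% of those called over 4-fold higher and 0.833% of those called over 4-fold lower, and the Y box in 6.26%, 4.99% and 5.32%. The H2-Aa window also holds TGACGTCA in lower case.

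Of 26 JAK, STAT, SOCS and IRF genes 17 were lower and 1 higher (median -2.13). Socs3, a feedback inhibitor of cytokine receptors, was at 155, 189.6 and 166 against 5.46, 4.99 and 5.95 CPM (-4.96 ± 0.39), and Irf1, a transcription factor of the interferon gamma response, at 1270, 1121 and 630.5 against 13.8, 9.93 and 15.4 CPM (-6.27 ± 0.71). Of 14 IL-17 receptors, ligands and adaptors 5 were lower and 2 higher (median -0.66). Traf3ip2, the gene of the adaptor Act1, was at 2.43, 2.81 and 5.74 against 0, 0.28 and 0.229 CPM (-4.38 ± 0.85). It was below 6 CPM in all 6 libraries. Of 19 complement genes and regulators 14 were lower and 1 higher (median -5.70; -3.96 against replicate 3). Serping1, the inhibitor of C1, was at 1296, 797 and 302 against 3.44, 2.34 and 1.87 CPM (-8.29 ± 0.96), C4b at 1949, 1309 and 192 against 16, 21.5 and 24.7 CPM (-5.79 ± 0.78; -5.16 without Il17ra-Cre replicate 1), and clusterin, Clu, at 2259, 2076 and 919.7 against 219, 235 and 218 CPM (-2.97 ± 0.30). In all 3 replicate 3 was the lowest Il17ra-Cre library.

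Genes of the Hippo, TGF-beta and integrin pathways were mostly lower. Of 18 Hippo pathway genes 12 were lower, at medians of -2.14, -1.93 without replicate 3 and -2.04 against it alone. Its transcriptional coactivators Wwtr1, or TAZ, and Yap1 were at 63.9, 79.7 and 96.1 against 1.9, 2.83 and 1.94 CPM (-5.16 ± 0.30) and 19.8, 18.8 and 22.1 against 2.57, 3.15 and 2.14 CPM (-2.95 ± 0.20). Of 30 TGF-beta and BMP genes 16 were lower and 1 higher (median -1.37). Id3, a target of BMP signals, was at 399, 528 and 282 against 27.3, 18.2 and 20.6 CPM (-4.19 ± 0.30). Of 20 integrins and their partners 12 were lower (median -2.53), with Itgb5 at 54.2, 63.7 and 47 against 2.44, 4 and 4.2 CPM (-3.95 ± 0.26). In each of these genes all 3 Il17ra-Cre libraries lay well above Il17rb-Cre.

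The FGF and Notch lists went both ways. Of 18 FGF ligands and receptors 5 were higher and 7 lower, beside 16.4% and 24.4% of all genes tested. The receptors Fgfr3 and Fgfr1 were lower, at 85.9, 74.9 and 105 against 8.2, 6.11 and 4.87 CPM (-3.79 ± 0.26) and 44.1, 35.7 and 40.7 against 5.18, 6.33 and 7.18 CPM (-2.69 ± 0.19). Fgf13, an intracellular partner of sodium channels, was higher, at 28.4, 36.8 and 68.1 against 212, 238 and 248 CPM (2.39 ± 0.31). Of 23 Notch pathway genes 6 were higher and 12 lower, and only 3 were higher when Il17ra-Cre replicate 1 or 2, Il17rb-Cre replicate 2 or 3 or Il17rc-Cre replicate 3 was left out. Notch1 was at 16.9, 21.4 and 6.28 against 0.0375, 0.173 and 0.2 CPM (-6.69 ± 0.62).

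Most genes of fatty acid oxidation, the lysosome and lipid transport were lower. Of 18 genes of fatty acid oxidation 17 were lower, at medians of -3.15, -3.28 without replicate 3 and -2.83 against it alone. Decr1, a reductase for unsaturated fatty acids, was at 87.2, 90.7 and 81 against 9.5, 7.58 and 7.62 CPM (-3.39 ± 0.16), and Acadl, a long-chain dehydrogenase, at 296, 251 and 136 against 13.9, 13.2 and 13.6 CPM (-4.07 ± 0.27). Of 24 lysosomal genes 23 were lower (median -2.60), with the tetraspanin Cd63 at 960.1, 864 and 1104 against 22.1, 17.8 and 22.8 CPM (-5.54 ± 0.33) and Npc2, which carries cholesterol out of lysosomes, at 268, 241 and 157 against 23, 22.1 and 24.8 CPM (-3.25 ± 0.24). Every Il17ra-Cre library was above every Il17rb-Cre library in these genes. Of 19 genes of lipid transport and storage 12 were lower and 1 higher (median -2.88). The cholesterol exporter Abca1 was at 75.8, 101 and 39.3 against 1.97, 2.43 and 1.31 CPM (-5.24 ± 0.39) and the fatty acid binding protein Fabp7, of astrocytes and progenitors, at 279, 303 and 263 against 11.5, 7.27 and 9.36 CPM (-4.91 ± 0.36).

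Of 23 antioxidant genes and metallothioneins 14 were lower and 1 higher (median -1.92). Prdx6, a peroxiredoxin, was at 5385, 5000 and 5665 against 225, 179 and 219 CPM (-4.69 ± 0.21), and Nfe2l2, the transcription factor NRF2, at 152, 135 and 99.9 against 4.75, 5.18 and 6.12 CPM (-4.59 ± 0.26). The metallothionein Mt1 was highest in replicate 3, at 1793, 1722 and 2509 against 208, 148 and 151 CPM (-3.57 ± 0.22). Of 20 genes of ganglioside and sulfatide synthesis 6 were higher and 6 lower. St3gal5, which makes the first ganglioside of the series, was at 73.5, 67.3 and 116 against 231, 290.0 and 237 CPM (1.56 ± 0.23), and Cers2, the ceramide synthase of the long chains in myelin, at 375, 253 and 81.9 against 14.8, 12.6 and 14.2 CPM (-4.09 ± 0.52). Of 23 cell cycle genes 14 were lower (median -2.13), with the replication helicase subunit Mcm3 at 21.1, 17.9 and 12.2 against 1.45, 0.654 and 1.6 CPM (-3.79 ± 0.42) and the D-type cyclin Ccnd3 at 109, 129 and 147 against 23.9, 34.6 and 29.4 CPM (-2.13 ± 0.22).

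The lists of proteasome subunits and translation factors lay near the median of all genes. Of 31 proteasome subunits 1 was higher and 5 lower (median -0.21), with 3 lower without Il17ra-Cre replicate 1 or any Il17rb-Cre replicate and 3 higher without Il17ra-Cre replicate 3. Psmb2, a core subunit, was at 617, 443 and 442 against 259.8, 218 and 226 CPM (-1.09 ± 0.19). Of 28 translation factors 5 were higher and 5 lower (median -0.12, and 0.02 with upper-quartile scaling), with counts from 3 to 7 and from 3 to 7 when 1 library was left out. Eef1a1, the elongation factor of most cells, was at 821, 734 and 829 against 416, 364 and 358 CPM (-1.07 ± 0.21), and Eif4a2, a helicase rich in neurons, at 192, 204 and 293 against 400.3, 409 and 399 CPM (0.81 ± 0.17). Of 9 mitochondrially encoded mRNAs tested 3 were lower (median -0.93), and 0 to 5 when 1 library was left out. The summed level of all mitochondrially encoded genes was 113, 70.3 and 49.4 CPM in Il17ra-Cre and 30.9, 46.1 and 34.2 CPM in Il17rb-Cre. Of 7 nuclear non-coding RNAs 2 were lower (median -0.85). These were Malat1 and Neat1, at 46.3, 33.2 and 20.7 against 4.47, 5.71 and 4.59 CPM (-2.76 ± 0.43) and 51.4, 78.1 and 12.7 against 1.29, 1.03 and 1.1 CPM (-5.38 ± 0.78).

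Markers of neighbouring regions were measured for the dissection. Of 9 striatal projection neuron markers 1 was called higher, 3 without Il17ra-Cre replicate 3 and 0 without Il17ra-Cre replicate 1 or 2 or Il17rb-Cre replicate 3. Their median was 0.48 with all libraries and 2.32 without Il17ra-Cre replicate 3. Ppp1r1b, the phosphatase inhibitor DARPP-32, which is also made in deep cortical layers, was at 35.9, 43.1 and 219.8 against 373, 429.8 and 351 CPM and was called without replicate 3 (3.29, edgeR adjusted p = 0.0078) but not with it (edgeR adjusted p = 0.0845). With replicate 3 kept it was called without Il17rc-Cre replicate 2 (edgeR adjusted p = 0.043) and by DESeq2 (0.0175). Limma voom also called it (3.05, limma adjusted p = 0.00249), but its sample quality weights can count replicate 3 for less. Of 6 thalamic markers 2 were higher and 4 lower. Tcf7l2, a transcription factor of thalamic neurons and of maturing oligodendrocytes, was at 29.2, 30.4 and 12.4 against 0.807, 0.948 and 0.6 CPM (-4.93 ± 0.40), while Slc17a6, the vesicular glutamate transporter of thalamus, was at 3.85, 2.87 and 4.58 against 16.1, 22.8 and 17.3 CPM (2.31 ± 0.27). Of 5 hippocampal markers tested 3 were lower (median -1.97; -0.46 without Il17ra-Cre replicate 3). Prox1, of the dentate gyrus and of other cells, was at 99.7, 80.8 and 10.5 against 1.69, 0.641 and 2 CPM (-5.46 ± 0.98). Of 8 ependymal and choroid plexus markers tested 2 were lower (median -1.86), beside 24.4% of all genes tested. Foxj1, the master factor of motile cilia in ependymal cells, was at 73.7, 71.1 and 41.2 against 4, 4.43 and 1.92 CPM (-4.17 ± 0.40). Blood was traced by the haemoglobin gene Hba-a1, at 4.04, 3 and 2.27 against 2.48, 1.87 and 2.13 CPM. How far other cells or regions in the tissue piece enter the differences was not tested.

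**Figure D5:**
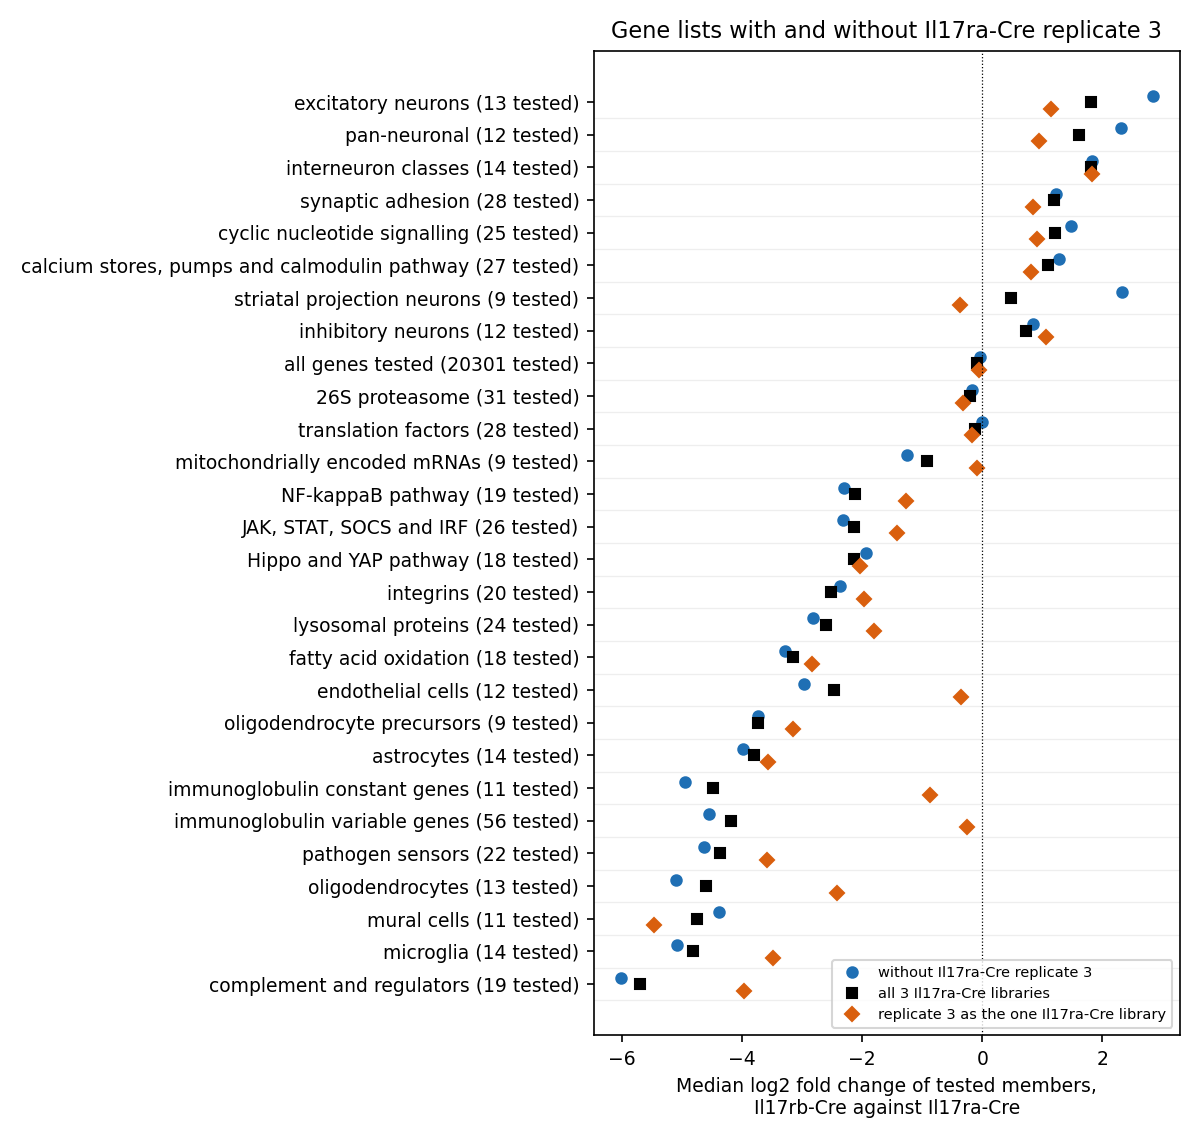
Median log2 fold change (horizontal) of the tested members of selected lists and of all genes tested; squares are the fit of all libraries, circles the fit without Il17ra-Cre replicate 3 and diamonds the fit in which replicate 3 is the only Il17ra-Cre library. The 3 points lie close together for interneuron classes, fatty acid oxidation and the Hippo pathway and far apart for oligodendrocytes, endothelial cells and immunoglobulin genes.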

How the data were processed

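Ribosome-bound RNA from 10 mouse libraries, made with the SMART-Seq v4 kit, was sequenced; the 3 Il17ra-Cre and 3 Il17rb-Cre libraries are compared here. The authors deposited raw counts per gene, from reads aligned with STAR 2.7.5c to GRCm38 per the submitters' processing notes. The sources used here do not give the counting step or strand setting, and the kit does not mark strand, so overlapping genes cannot be told apart. Gene positions were taken from GENCODE M21 by gene ID (all 55536 matched).

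Counts of 20301 genes that passed edgeR's expression filter were TMM-scaled and fitted over all 10 libraries with edgeR 4.0.16 (R 4.3.3; quasi-likelihood test, two-sided, Benjamini-Hochberg adjustment over all genes tested, threshold 0.05); the same fit was run without Il17ra-Cre replicate 3. An exact permutation test of 3 libraries against 3 cannot give a p under 0.1. In the fit with replicate 3 as the only Il17ra-Cre library only effect sizes are read, since that library is assumed to vary like the others. Per-library differences use log2(CPM + 0.5). The fits were tested on simulated data. Alternatives were DESeq2 1.42.0, limma 3.58.1 voom with sample quality weights, other scalings and filters, replicate blocks and single libraries left out.

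Members, lists and rules were chosen with earlier results of these data known. Named genes had a mean of at least 8 CPM in the higher group and were those with the widest gap between groups (10 a direction), with replicate 3 at the Il17rb-Cre level (8) or farther out (6), and from each list up to 3 called members of smallest p and the most abundant one, with the IL-17 receptors and Rpl10a. Igha, H2-Aa and the immunoglobulin lists were chosen after their values were seen. Promoter letters and starts are RefSeq's.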

Additional observations from a re-analysis of the deposited data

How the results depend on the processing

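The number of genes called stayed within 1.5 times of 8268 under every tool, scaling, filter, depth and replicate block tried, from 7202 with only the 2 groups compared to 11416 with limma voom. Limma voom called 5085 higher, against 3321. Leaving out 1 of the 10 libraries gave 6541 to 9916 calls, of which 2479 to 4411 were higher and 4046 to 5505 lower. With Il17ra-Cre replicates 1 and 2 both left out there were 4192 calls, 1464 higher and 2728 lower, from 1 library against 3. That fit assumes that the single Il17ra-Cre library varies like the other libraries. Its counts are therefore only listed here, and no conclusion is drawn from them. A fit of the 2 groups without replicate 3, added after the data were seen, called 10050. Thinning replicate 3 to the mean total of replicates 1 and 2 gave 8276 calls, and DESeq2 9514. Upper-quartile scaling moved the median log2 fold change of all genes tested from -0.09 to 0.04 and called 3850 higher and 4496 lower. With DESeq2 size factors for the CPM of each library, 7 in place of 14 genes called higher had replicate 3 inside or beyond the Il17rb-Cre range.

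Without Il17ra-Cre replicates 1 and 2 the log2 fold change turned in 9 named genes: Rpl10a (-0.059), Rem2 (-0.55), Bex1 (-0.075), Ccdc155 (-0.022), Lgi3 (0.24), Atg7 (0.26), Tubb4a (0.36), Ighm (0.77) and Ighv5-6 (5.26). In each of them replicate 3 lay at or beyond the Il17rb-Cre level. Rpl10a, Bex1 and Ccdc155 were close to no change. The value of Ighv5-6 rests on 2 counts in replicate 3 against 0, 9 and 96 in Il17rb-Cre replicates 1 to 3.

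Same-numbered libraries of the groups did not deviate together (r = -0.01, 0.02 and -0.08 across genes). Il17ra-Cre replicate 3 stood apart and enters the mean from which the Il17ra-Cre deviations were taken. The check therefore cannot decide whether same-numbered libraries were handled together. With the replicate block there were 7627 calls by the number in the title and 7203 by that in the library name, and among named genes the calls of Lgi3, Tubb4a, Ighm, Ighv1-52 and Ighv5-6 were lost under both and that of Ppp1r1b was gained (edgeR adjusted p = 0.0341 and 0.0492). The cause was not tested. For genes near 0 counts in Il17rb-Cre the depth limits how large a fold can be stated.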
